A study of Mus musculus with 12 samples.

Results

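The proteasome is the barrel-shaped protease that degrades ubiquitin-tagged proteins. Its core particle is a stack of rings built from alpha subunits (Psma genes), which gate the barrel, and beta subunits (Psmb genes), some of which carry the proteolytic sites. A regulatory particle of ATPases (Psmc genes) and non-ATPase subunits (Psmd genes) caps the core, binds and deubiquitinates the substrate, unfolds it and feeds it into the barrel. Nearly all of these constitutive subunits are made in every cell, and macrophages, microglia included, can exchange the catalytic beta subunits for inducible ones that shape peptides for presentation. The constitutive subunits were taken as every gene whose symbol is Psma, Psmb, Psmc or Psmd followed by a number, without the inducible Psmb8, Psmb9 and Psmb10. That gave 36 members among 24058 genes with a symbol of their own, of which 16 were core (8 alpha, 8 beta) and 20 regulatory (6 ATPases, 11 non-ATPase subunits and the 3 assembly chaperones Psmd5, Psmd9 and Psmd10). Adrm1 and Shfm1, which also encode regulatory subunits, carry other names and are given with the related genes.

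The cells were BV2, a mouse microglial line kept in culture by immortalisation, and their polyadenylated RNA was read after Spi1 was changed and the cells had been sorted by flow cytometry. Spi1 encodes PU.1, an ETS-family transcription factor that macrophages depend on. In the knockdown experiment 3 libraries came from cells given a scrambled control hairpin and 3 from cells with transient hairpin knockdown of Spi1, and in the overexpression experiment 3 came from an empty frame control and 3 from cells overexpressing mouse Spi1 cDNA. All 4 groups share the line and the sorting, whose gate the labels do not name. Separate cultures behind the 3 libraries of a group are not stated, so the p-values rest on a spread between libraries that may be technical.

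Levels are in FPKM, a read density scaled for gene length and library depth, and each library held 22.3 to 33.1 megareads on genes. Spi1 stood at 159.2, 169.2 and 167.7 FPKM in the scrambled controls and at 50.9, 42.4 and 52.3 FPKM after knockdown, and fell by 1.75 on the log2 scale (limma adjusted p = 0.000697). The empty controls held 158.1, 117.3 and 131.0 FPKM and the overexpression libraries 286.6, 223.6 and 206.3 FPKM, a log2 fold change of 0.81 (limma adjusted p = 1.0, and 0.0357 with the library number as a block). No library went against its label. Of 9 microglia and macrophage markers in the tables the sum was 2211.0 to 5427.7 FPKM, led by Lyz2, and 5 neuronal, 5 astrocyte and 5 fibroblast markers summed to at most 0.262, 0.0857 and 0.0898 FPKM. Libraries numbered 2 stood apart from numbers 1 and 3 in the overexpression experiment, and same-numbered libraries of an experiment deviated together, so values are also given with the library number as a block and without both libraries numbered 2.

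Promoters are shown for the catalytic subunits and the members with the smallest p-values that RefSeq's promoter table held (GRCm38.p6, 250 bases before to 50 after the start, 5′ to 3′ on the gene's strand), so that the motifs counted here can be seen in place. Capitals mark TGACNNNGC, the antioxidant response element that the proteasome's own activators of the Nrf family bind, GAGGAA, the core that PU.1 prefers, CCGGAA, a core of other ETS factors, and CCAAT, the CCAAT box, each on either strand. Psma7 lies at chr2:180042415-180042714 on the minus strand, Psmd8 at chr7:29180624-29180923 minus, Psmb6 at chr11:70525107-70525406 plus and Psmb5 at chr14:54617946-54618245 minus.
Psma7: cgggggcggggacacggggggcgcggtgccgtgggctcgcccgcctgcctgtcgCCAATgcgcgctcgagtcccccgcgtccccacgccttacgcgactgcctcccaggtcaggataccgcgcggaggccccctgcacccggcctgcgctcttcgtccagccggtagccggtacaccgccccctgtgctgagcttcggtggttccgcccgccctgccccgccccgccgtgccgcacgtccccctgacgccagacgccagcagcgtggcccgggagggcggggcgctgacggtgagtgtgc
Psmd8: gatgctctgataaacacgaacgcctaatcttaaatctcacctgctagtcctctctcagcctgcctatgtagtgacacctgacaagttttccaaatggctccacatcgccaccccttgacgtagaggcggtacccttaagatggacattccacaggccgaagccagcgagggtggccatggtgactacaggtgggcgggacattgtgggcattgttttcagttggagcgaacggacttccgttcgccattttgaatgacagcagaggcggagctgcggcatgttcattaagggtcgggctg
Psmb6: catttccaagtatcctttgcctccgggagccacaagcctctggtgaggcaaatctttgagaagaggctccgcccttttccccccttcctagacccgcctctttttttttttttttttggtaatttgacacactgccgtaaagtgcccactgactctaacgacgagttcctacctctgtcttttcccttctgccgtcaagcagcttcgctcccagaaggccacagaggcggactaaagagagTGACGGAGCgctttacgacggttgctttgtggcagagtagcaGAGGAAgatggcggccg
Psmb5: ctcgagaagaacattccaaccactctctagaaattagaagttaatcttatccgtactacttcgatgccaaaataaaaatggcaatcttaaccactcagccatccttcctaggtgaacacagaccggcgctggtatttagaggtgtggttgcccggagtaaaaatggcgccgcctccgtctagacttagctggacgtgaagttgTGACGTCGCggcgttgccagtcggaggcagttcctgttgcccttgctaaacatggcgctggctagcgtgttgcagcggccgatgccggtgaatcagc
Of these, Psmb5 and Psmb6 each held 1 antioxidant response element, Psmb6 also held 1 GAGGAA, Psma7 held 1 CCAAT box and Psmd8 held none of the 4 motifs.

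RefSeq had a promoter for 29 of the 36 members. Shares are of genes with a promoter, and a gene counts if any of its promoters holds the motif. The antioxidant response element was in 5 of the 29 (17.2%: Psmb5, Psmb6, Psmc6, Psmd9 and Psmd12), against 14.0% of all 27025 genes and 17.2% of tested genes. GAGGAA was in 6 (20.7%), namely Psma3, Psma4, Psma6, Psmb6, Psmc1 and Psmc2, against 31.3% of all genes and 30.6% of tested genes. CCGGAA was in 15 (51.7%), 4 of 12 core and 11 of 17 regulatory genes, against 16.7% of all genes and 34.4% of tested genes. The CCAAT box was in 12 (41.4%), against 41.1% of all genes and 43.2% of tested genes. A match is a description of letters and not a bound site.

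Among the members, 34 were expressed and 2 were not. Psma8, which encodes an alpha subunit of the testis, was listed at 0 in all 12 libraries, and Psmb11, which encodes the beta subunit of thymic cortical epithelium, was between 0 and 0.0383 FPKM, at most 4 reads in a library. The other 34 averaged 11.7 to 322.5 FPKM over the 12 libraries, each library holding 646 to 19016 reads on a member, and 33 of them lay above 13.6 FPKM, the median of all tested genes. Counting error at the lowest read number was at most 3.93% of a value, and the median coefficient of variation within a group was 6.8%.

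**Figure D1:**
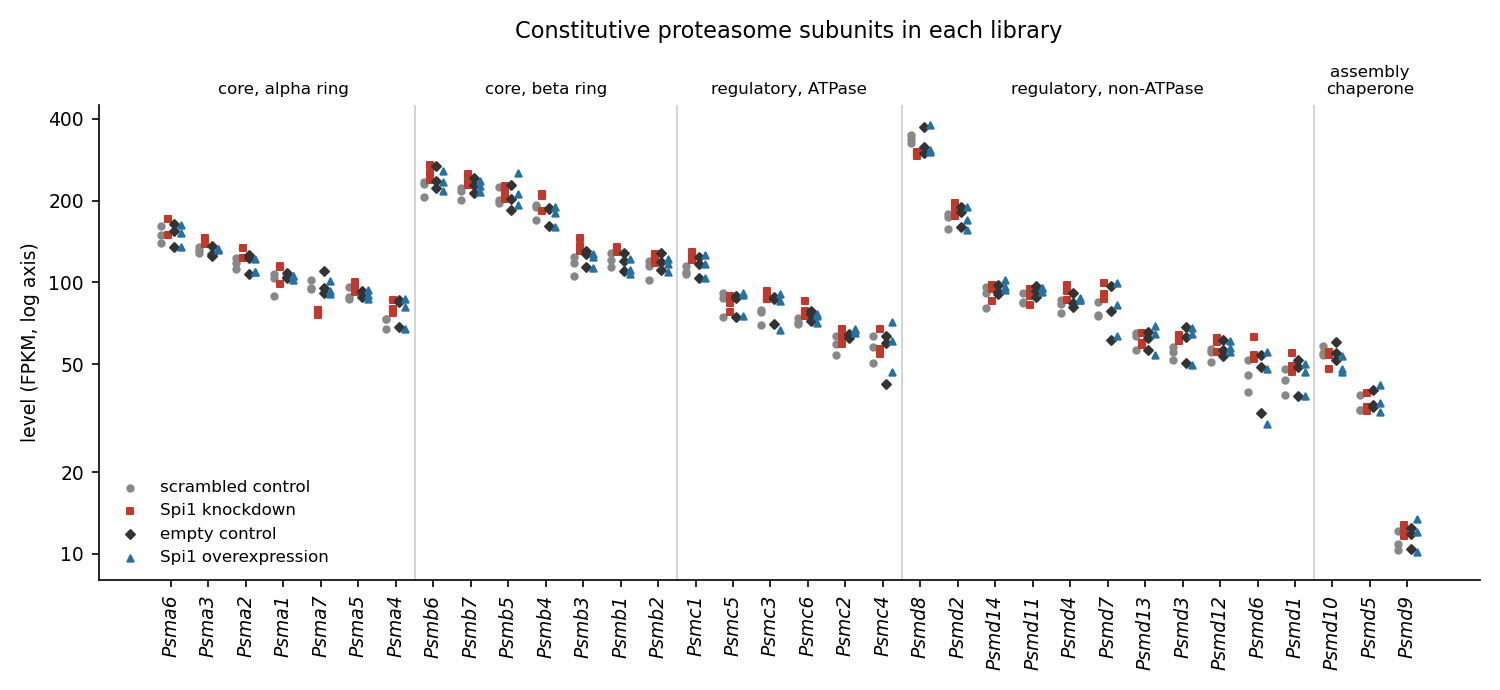
Level of each of the 34 expressed members (FPKM, log axis) in each of the 12 libraries, in groups by role and in falling order of mean. Psmd8 tops the plot at 322.5 FPKM on average and Psmd9 is lowest at 11.7 FPKM.

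The levels differed between subunits that the assembled particle holds in equal number. Beta subunits had the highest median (184.8 FPKM), above alpha subunits (105.0 FPKM), non-ATPase subunits (82.8 FPKM), ATPases (78.5 FPKM) and assembly chaperones (36.2 FPKM). The highest mean was 3.07 times the lowest among the 14 expressed core genes (Psmb6 at 238.7 and Psma4 at 77.7 FPKM), 2.03 times within the beta ring and 2.01 times within the ATPase ring (Psmc1 at 116.4 and Psmc4 at 57.9 FPKM). Among regulatory genes it was 27.6 times, from Psmd8, a lid subunit, to Psmd9, an assembly chaperone that does not stay in the particle. The 3 catalytic subunits were the top of the core. Psmb6 averaged 238.7, Psmb7 226.6 and Psmb5 211.2 FPKM, and their library ranges (206.7 to 269.7, 200.9 to 250.9 and 183.9 to 252.5 FPKM) overlapped.

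A member's highest library was 1.15 (Psma5) to 2.09 times (Psmd6) its lowest across all 12 libraries. Psmd6 is a lid subunit. Besides it, only Psmc4 (1.69 times), an ATPase, and Psmd7 (1.62 times), the lid partner of the deubiquitinase Psmd14, passed 1.5 times.

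Knockdown of Spi1 moved 2 of the 34 tested subunits past the threshold. Psma7 fell, Psmc3 rose and 32 did not pass (limma, Benjamini-Hochberg adjustment over 11214 genes). The background was 17.4% of all tested genes called higher and 8.86% called lower, so 1 of 34 in each direction lies below it. The median log2 fold change of log2(FPKM + 1) was 0.13 over the 14 tested core members, 0.12 over the 20 regulatory members and 0.07 over all tested genes. It was above 0 in 13 of 14 core and in 16 of 20 regulatory members, and in 12 of 14 and 12 of 20 when each library was scaled by the median of ratios.

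The replicate number as a block changed these calls. With it 12 members rose (4 core, 8 regulatory) and 2 fell, against 30.6% of all tested genes higher and 14.7% lower. The 12 were Psma4, Psmb3, Psmb6, Psmb7, Psmc1, Psmc3, Psmd1, Psmd2, Psmd3, Psmd4, Psmd6 and Psmd7, and Psma7 and Psmd8 fell. Median-of-ratios scaling, which brought the median of all genes to about 0, left no member higher, against 11.1% of all genes, and 2 lower (Psma7 and Psmd8), against 13.0%. Under that scaling the median log2 fold change was 0.05 in core and 0.05 in regulatory members. Without both libraries numbered 2, no member passed (limma, 5 of 34 at an unadjusted p under 0.05), against 2.20% of all tested genes higher and 1.80% lower (3408 of 11232 at an unadjusted p under 0.05).

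**Figure D2:**
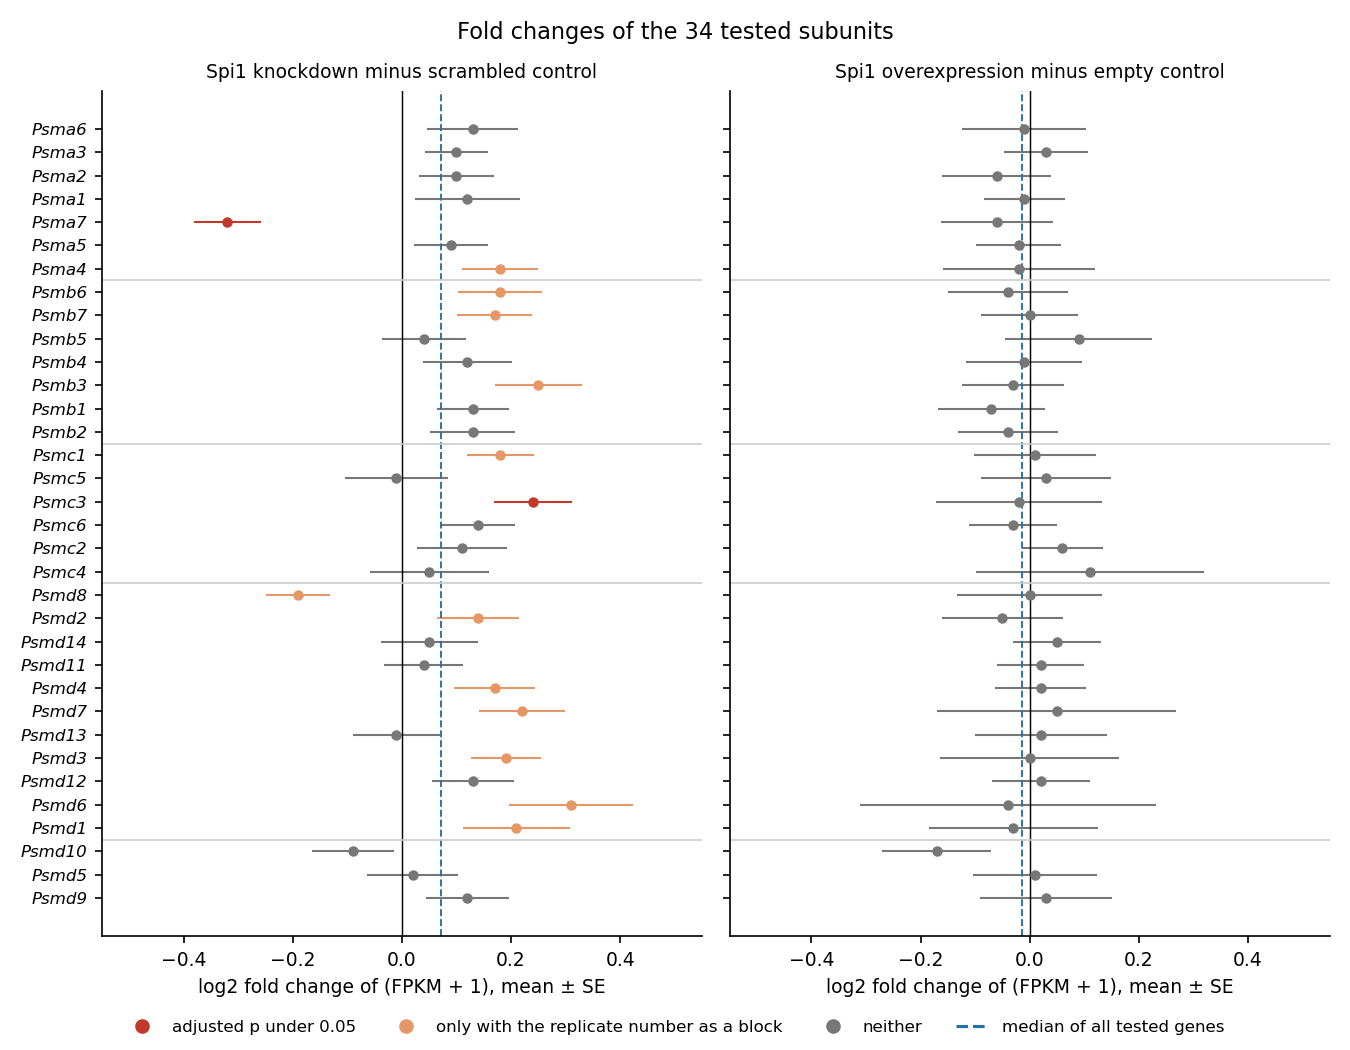
Log2 fold change of (FPKM + 1) with its SE for the 34 tested members, n = 3 libraries a group, Spi1 knockdown on the left and overexpression on the right; the dashed line is the median of all tested genes. Psma7 at -0.32 and Psmd8 at -0.19 stand to the left after knockdown, while most others lie slightly right of 0, and no member is coloured as called after overexpression.

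In the alpha ring Psma7 stood at 94.6, 95.6 and 102.0 FPKM in the scrambled controls and at 79.2, 75.5 and 79.0 FPKM after knockdown. All 3 knockdown libraries lay below all 3 controls. Psma7 fell by 0.32 on the log2 scale (SE 0.0616, limma adjusted p = 0.0116), with an adjusted p of 0.00727 under the block. Each of the 6 fits without 1 library also called it (adjusted p 0.0223 to 0.0427), and without both libraries numbered 2 it was -0.31 at an adjusted p of 0.0804. Its gene lies on chr2:180036374-180042433 (mm10, minus strand, 6 exon blocks), and no other gene of GENCODE M21 covers its exons. In the other experiment the empty controls held Psma7 at 91.0, 109.9 and 95.3 FPKM, and the overexpression libraries, at 90.3, 100.8 and 92.7 FPKM, overlapped them. The other 6 tested alpha subunits ranged from 0.09 (Psma5) to 0.18 (Psma4) after knockdown, and Psma4 passed only with the block (adjusted p = 0.0261).

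The catalytic subunits did not pass without the block. Psmb5, the chymotrypsin-like subunit, stood at 196.3, 224.0 and 200.9 FPKM in the scrambled controls and at 201.9, 225.4 and 212.9 FPKM after knockdown. The groups overlapped (log2 fold change 0.04, SE 0.0768, limma adjusted p = 0.691). Psmb6, the caspase-like subunit, stood at 206.7, 230.3 and 233.9 FPKM and after knockdown at 238.6, 252.9 and 269.7 FPKM. All 3 knockdown libraries were higher, at a log2 fold change of 0.18 (SE 0.0775, limma adjusted p = 0.123, and 0.0244 with the block). Psmb7, the trypsin-like subunit, stood at 200.9, 217.2 and 221.9 FPKM and after knockdown at 228.9, 250.9 and 239.0 FPKM. It too was above the controls in each knockdown library, at 0.17 (SE 0.0688, limma adjusted p = 0.113, and 0.0344 with the block). With median-of-ratios scaling Psmb6 was at 0.1 (limma adjusted p = 0.33) and Psmb7 at 0.09 (limma adjusted p = 0.349). In GENCODE M21 Nek6 runs over Psmb7's exons on the opposite strand (Psmb7 at chr2:38588036-38644087). The values fit a Psmb7 length of 969 bases, against 3421 in GENCODE M21, so the counted exons may not include the overlap. The library kit does not mark strand, so reads from any counted stretch the pair shares cannot be told apart. Psmb6 lies at chr11:70525367-70527858, and Psmb5 at chr14:54614119-54618022, where Mir686 lies within its exons. Psmb3, a structural beta subunit, had the ring's largest fold change at 0.25 (limma adjusted p = 0.0589, 0.0183 with the block and 0.137 with median-of-ratios scaling).

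With overexpression the catalytic subunits overlapped their controls. The empty controls held Psmb5 at 228.5, 183.9 and 203.3 FPKM, against 252.5, 192.7 and 211.6 FPKM with the cDNA. Psmb6 stood at 222.1, 268.6 and 235.6 FPKM against 233.1, 256.2 and 217.0 FPKM. Psmb7 stood at 227.6, 212.4 and 241.3 FPKM against 236.9, 215.2 and 226.9 FPKM. Library 2 was the lowest of both groups for Psmb5 and Psmb7 and the highest of both for Psmb6.

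**Figure D3:**
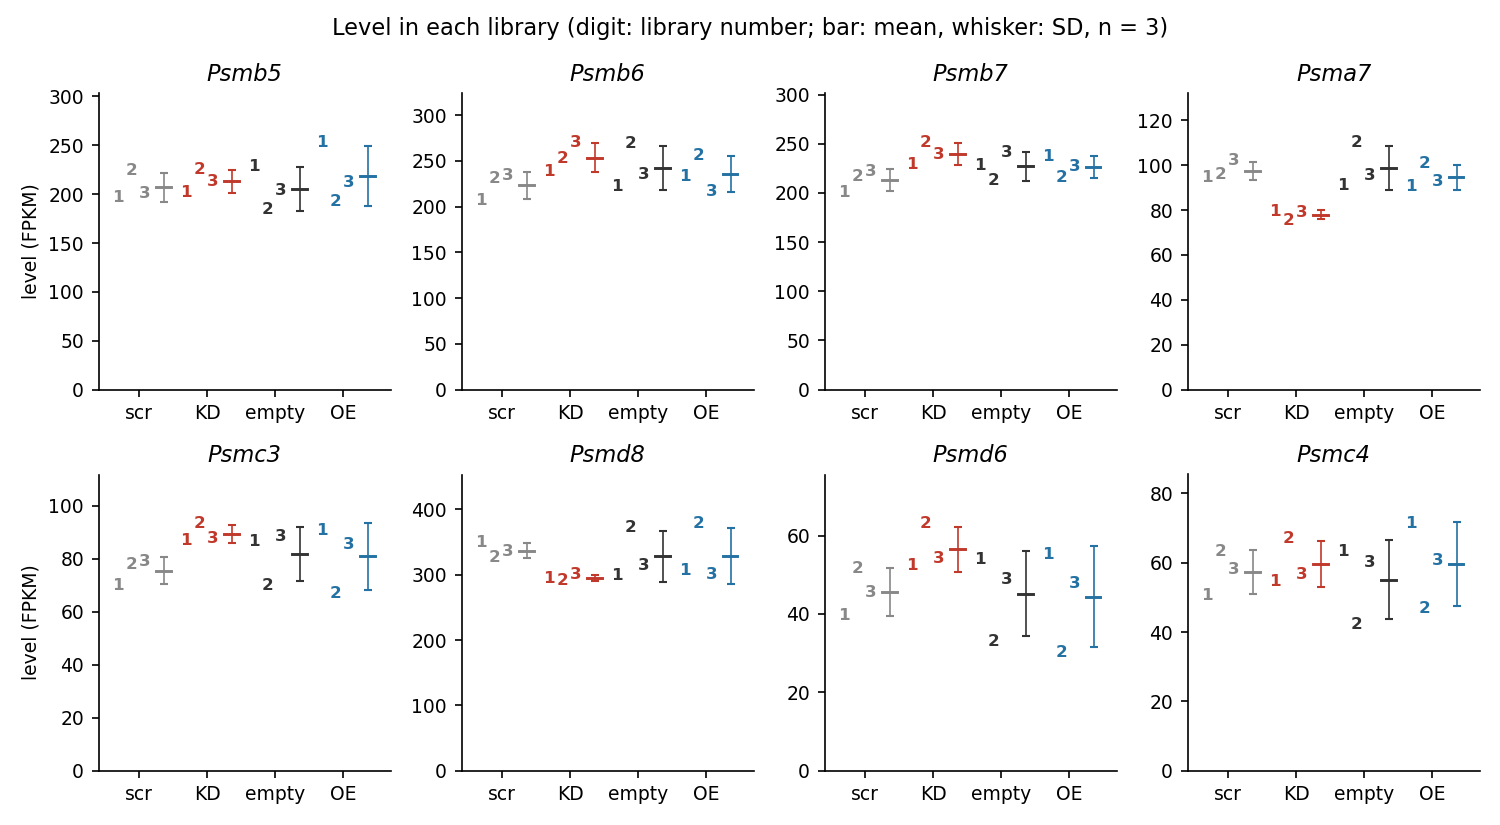
Level (FPKM) of 8 members in each library, with digits for the library number, a bar for the mean and a whisker for the SD (n = 3); scr is the scrambled control, KD Spi1 knockdown, empty the empty control and OE Spi1 overexpression. Psma7 and Psmd8 are lower in all 3 knockdown libraries than in the scrambled controls, and Psmd6 drops to 33.0 and 30.1 FPKM in the libraries numbered 2 of the overexpression experiment.

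Among the ATPases Psmc3, which helps to open the core's gate, rose. It stood at 69.8, 77.8 and 79.0 FPKM in the scrambled controls and at 87.0, 93.1 and 87.7 FPKM after knockdown, with no overlap. The log2 fold change was 0.24 (SE 0.0712, limma adjusted p = 0.0448), with an adjusted p of 0.0181 under the block. None of the 6 fits without 1 library called it (adjusted p 0.0623 to 0.130), nor did median-of-ratios scaling (0.16, adjusted p = 0.112). The overexpression libraries held it at 90.7, 66.7 and 85.2 FPKM, against 86.6, 70.0 and 88.5 FPKM in their empty controls, and overlapped them.

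Psmc3 is also Spi1's neighbour. It lies on chr2:91054009-91066369 (plus strand, 12 exon blocks) and ends 16.0 kb before the start of Spi1, with Slc39a13, a zinc transporter gene, between them and over some of Psmc3's exons on the opposite strand. That overlap is of GENCODE M21 exons. The values fit a Psmc3 length of 1635 bases, against 2607 in GENCODE M21, so the counted exons may not include it. Reads from any counted stretch the pair shares cannot be told apart. Slc39a13 stood at 12.3, 14.0 and 12.2 FPKM in the scrambled controls and at 12.9, 12.6 and 11.9 FPKM after knockdown (log2 fold change -0.04, limma adjusted p = 0.724). Of the other ATPases Psmc1 (0.18) passed with the block (limma adjusted p = 0.0409) and not in the main fit without it (0.0678). Psmc2, Psmc4, Psmc5 and Psmc6 ranged from -0.01 to 0.14.

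Among the non-ATPase subunits none passed in the main fit, which had no block. Psmd8 stood at 349.0, 326.8 and 335.8 FPKM in the scrambled controls and at 294.1, 292.0 and 300.8 FPKM after knockdown, all 3 below the controls; it was named after its values were seen. Its log2 fold change was -0.19 (SE 0.0585, limma adjusted p = 0.0507). The adjusted p was 0.0238 with the block, 0.0187 with median-of-ratios scaling, where the fold change was -0.27, and 0.0244 with no filter on low genes. It was 0.0793 to 0.132 in the fits without 1 library. The gene of Psmd8 lies on chr7:29174188-29180701 (minus strand, 6 exon blocks).

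Psmd6 had the highest fold change of all members. It stood at 39.5, 51.7 and 45.6 FPKM in the scrambled controls and at 52.4, 63.0 and 54.1 FPKM after knockdown, above the controls in each library. The log2 fold change was 0.31 (SE 0.114, limma adjusted p = 0.0855, and 0.00963 with the block). With median-of-ratios scaling it was 0.23 (limma adjusted p = 0.167). Leaving out scrambled control 2, the highest control, gave 0.40 at an adjusted p of 0.0482. The scaffold subunits Psmd1 (0.21) and Psmd2 (0.14) and the ubiquitin receptor Psmd4 (0.17) passed with the block. So did the lid subunits Psmd3 (0.19) and Psmd7 (0.22). None of these passed in the main fit. Psmd14 (0.05), the deubiquitinase, and Psmd11 (0.04), Psmd12 (0.13) and Psmd13 (-0.01), of the lid, passed in neither fit.

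The 3 chaperones that assemble the ATPase ring did not pass with or without the block. Psmd5 was at 0.02, Psmd9 at 0.12 and Psmd10, also known as gankyrin, at -0.09 after knockdown.

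Counted by library, after knockdown all 3 libraries lay above all 3 controls for 13 of 34 members (6 core, 7 regulatory), against 30.3% of all tested genes, and below them for 2 (Psma7 and Psmd8), against 15.1%. In the same libraries 20 genes of the G2 and M phases of the cell cycle were summed. Their sum was 315.4 to 458.1 FPKM in the scrambled controls and 702.4 to 780.9 FPKM after knockdown. The empty controls, in the separate table of the other experiment, held 603.5 to 819.1 FPKM. The summed macrophage markers went from 3802.4 to 4662.1 FPKM in the scrambled controls to 2211.0 to 3014.5 FPKM. Lyz2 led that sum, and not all 9 markers fell. Emr1 held 5340, 4766 and 4526 reads in the scrambled controls and 7995, 8583 and 12189 after knockdown. These libraries held 25.8, 24.6 and 24.4 against 26.6, 26.7 and 33.1 megareads on genes. The part of these cycle genes and markers in the subunits' values was not tested. In these bulk samples a change in the share of cells of a kind and a change of RNA per cell cannot be told apart.

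Overexpression of Spi1 moved no subunit past the threshold. Of 34 tested members 0 passed in limma, with 0 at an unadjusted p under 0.05, against 0.00% of 11217 genes called and 122 genes at an unadjusted p under 0.05. With the block 0 members passed and 1 had an unadjusted p under 0.05. Over all genes 0.116% were called with it, and 1577 of 11217 had an unadjusted p under 0.05. The fit without the block leaves the differences between library numbers in its error. Median log2 fold changes were -0.02 over the core and 0.02 over the regulatory members, and -0.01 over all tested genes. For 1 member (Psmc2, at 63.9, 62.2 and 64.7 against 66.6, 67.3 and 64.8 FPKM) all 3 overexpression libraries lay above the controls, against 1.66% of all genes, and for 0 below, against 2.40%.

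Neither the highest nor the lowest member passed in limma, with or without the block. The empty controls held Psmc4 at 63.3, 42.1 and 60.0 FPKM, against 71.2, 46.9 and 60.7 FPKM with overexpression, a log2 fold change of 0.11 (SE 0.209). Its adjusted p was 0.378 with the block, and it was higher in each of the 3 same-numbered pairs. It turned to -0.07 without empty control 2 and to -0.02 without overexpression library 1, fits in which a library has no same-numbered partner. Psmd10 stood at 51.7, 60.3 and 54.7 FPKM against 47.8, 53.6 and 46.6 FPKM, at -0.17 (SE 0.0999, limma adjusted p = 1.0, and 0.234 with the block), lower in each of the 3 same-numbered pairs. In the fits without the block, standard errors ran from 0.0738 (Psmc2) to 0.271 (Psmd6) in this experiment. They ran from 0.0583 (Psma3) to 0.114 (Psmd6) in the knockdown experiment. Small changes were thus less detectable here in the fit without the block.

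The knockdown and overexpression responses were also compared directly, each against its own controls. The overexpression response minus the knockdown response passed for 0 of 34 members in limma (2 at an unadjusted p under 0.05), against 4.84% of all genes. With the block it passed for 13. It was above 0 for Psma7 (0.26, adjusted p = 0.0124) and Psmd8 (0.19, adjusted p = 0.0347), against 12.9% of all genes, and below 0 for 11, against 28.6%. The most negative was Psmd6 (-0.35, adjusted p = 0.00770 with the block and 0.579 without). The other 10 were Psma4, Psmb1, Psmb3, Psmb6, Psmc3, Psmc6, Psmd1, Psmd2, Psmd3 and Psmd7.

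The balance of core and regulatory subunits shifted by less than the unpaired spread between libraries in either experiment. The mean of log2(FPKM + 1) over the core minus that over the regulatory members was 0.949, 0.904 and 0.960 in the scrambled controls and 0.950, 0.906 and 0.965 after knockdown. The change was 0.003, against a pooled SD between libraries of 0.030. In the empty controls it was 0.889, 1.002 and 0.915 and with overexpression 0.866, 0.989 and 0.882, a change of -0.023 against a pooled SD of 0.063. Both SDs include the differences between library numbers. Within each same-numbered pair the balance was slightly higher after knockdown and lower with overexpression. These paired differences were not tested. This balance differed more between library numbers than between groups. Number 2 was the highest of both groups of the overexpression experiment and the lowest of both groups of the knockdown experiment.

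**Figure D4:**
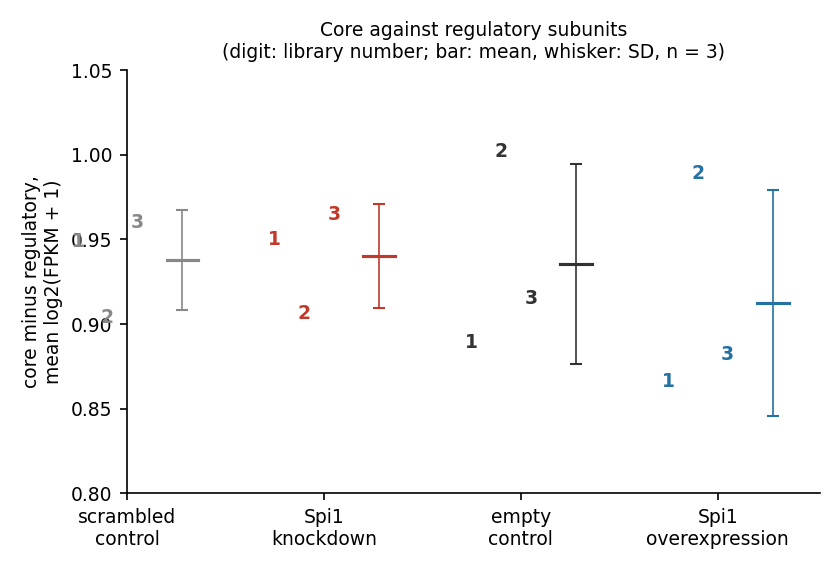
Mean log2(FPKM + 1) of the 14 expressed core members minus that of the 20 regulatory members in each library (digits are library numbers, bar the mean, whisker the SD, n = 3); the axis does not start at 0. Groups of an experiment share their pattern by number, with number 2 at 1.002 and 0.989 in the overexpression experiment and at 0.904 and 0.906 in the knockdown experiment.

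The same numbers marked single members. In the overexpression experiment library 2 was the lowest of 3 in both groups for 22 of 34 members, against 45.9% of all tested genes, and the highest in both for 6, against 23.6%. The 6 were Psma7, Psmb1, Psmb6, Psmd8, Psmd10 and Psmd14. The empty controls held Psmd6 at 53.9, 33.0 and 48.8 FPKM, against 55.2, 30.1 and 47.8 FPKM with overexpression. Psmd7 stood at 96.9, 61.1 and 78.6 against 99.2, 63.5 and 82.2 FPKM, and Psmd8 went the other way, at 298.4, 372.5 and 314.8 against 306.5, 378.0 and 301.2 FPKM. With median-of-ratios scaling the count of 22 became 16, against 34.5% of all genes, and the 6 became 9, against 34.7%.

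In the knockdown experiment library 2 was the highest of 3 in both groups for 20 of 34 members, against 24.1% of all tested genes, and the lowest in both for 2 (Psmb1 and Psmd8), against 20.9%. The 20 were 6 of 14 core and 14 of 20 regulatory members, and they stayed 20 with median-of-ratios scaling. Library 1 was the lowest of both groups for 26 of 34, against 26.0% of all tested genes, and for 19 with median-of-ratios scaling, against 19.7%. The shift of library 2 from the mean of libraries 1 and 3 was above 0 in the knockdown experiment and below 0 in the overexpression experiment for 27 of 34 members, and for 43.4% of the 11112 genes tested in both. Across the 34 members these shifts had a Pearson r of -0.66 and a Spearman rho of -0.53, and across all genes tested in both of -0.47 and -0.57. This describes genes measured in the same 12 libraries, which are not independent points.

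**Figure D5:**
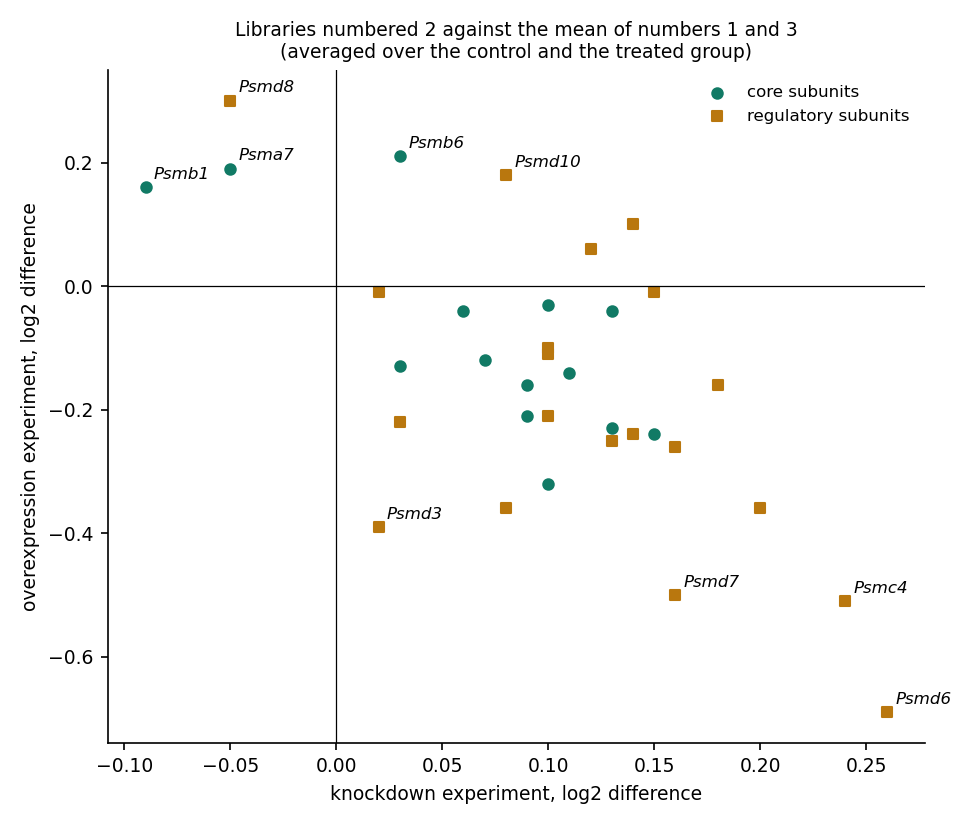
Log2 difference of the libraries numbered 2 from the mean of numbers 1 and 3, averaged over the control and treated group, for each of the 34 members in the knockdown (horizontal) and overexpression experiment (vertical). Psmd6 is farthest from 0 at 0.26 and -0.69, with Psmc4 at 0.24 and -0.51, and Psmd8 lies opposite at -0.05 and 0.30.

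Each catalytic subunit has an inducible counterpart, which interferon raises. Per length, Psmb6 stood at 5.10 ± 0.572 times Psmb9 (SD, n = 3) in the scrambled controls, 4.04 ± 0.252 times after knockdown, 5.40 ± 1.04 times in the empty controls and 5.36 ± 1.06 times with overexpression. In the same order Psmb5 stood at 2.48 ± 0.338, 2.07 ± 0.099, 2.35 ± 0.55 and 2.55 ± 0.355 times Psmb8 (SD, n = 3). Psmb7 stood at 2.98 ± 0.336, 3.08 ± 0.213, 3.7 ± 0.67 and 3.83 ± 0.941 times Psmb10 (SD, n = 3). These ratios were not tested. Psmb9 rose after knockdown (log2 fold change 0.50, limma adjusted p = 0.0220). Psmb8 (0.29) passed only with the block (adjusted p = 0.0336, and 0.102 without), and Psmb10 (0.12) did not pass with or without it (adjusted p 0.335 and 0.488).

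The other related genes were taken list by list, starting with the factors that build the core. Over all tested genes 17.4% were called higher after knockdown, and 30.6% with the block. Of 5 core assembly genes 2 rose after knockdown, Psmg2 (0.26, adjusted p = 0.0270) and Psmg4 (0.27, adjusted p = 0.0483), both chaperones of the alpha ring, and neither passed with median-of-ratios scaling in limma (adjusted p 0.0640 and 0.104). Of 5 activators and inhibitors of the core 0 passed in limma, with 2 at an unadjusted p under 0.05. Those 2 rose with the block: Psme1, a part of the interferon-induced cap, at 0.21 (adjusted p = 0.0222, and 0.0615 without), and Psme3, which forms a cap of its own, at 0.25 (adjusted p = 0.0137, and 0.0810 without). The block also took the core assembly genes that rose from 2 to 3, with Psmg1 (0.40, limma adjusted p = 0.00524). Of 6 other regulatory parts, among them Adrm1 (0.06) and Shfm1 (0.06), Uchl5, a deubiquitinase of the cap, rose (0.20, limma adjusted p = 0.0498, and 0.159 with median-of-ratios scaling).

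A list of 9 genes was taken around the Nrf1 axis, by which cells raise subunit genes when the proteasome is short. It also held Nfe2l2 and Keap1, which belong to the related Nrf2 route. Of the 9 genes 2 fell after knockdown. These were Maff (-0.49, limma adjusted p = 0.00277) and Mafk (-0.26, adjusted p = 0.0214), small Maf partners of Nrf factors. Maff stood at 16.8, 16.8 and 16.6 FPKM in the scrambled controls and at 11.7, 11.4 and 11.6 FPKM after knockdown, and in the separate table of the other experiment its empty controls held 13.5, 11.0 and 14.0 FPKM. Nfe2l1, which encodes Nrf1, was at -0.08 (adjusted p = 0.488). Of 10 ubiquitin and shuttle genes 2 rose, Ubqln1 (0.27, limma adjusted p = 0.0172) and Ubqln4 (0.37, adjusted p = 0.0192), which carry tagged proteins to the proteasome. With the block 6 of the 10 rose, and so did Keap1 of the list of 9 (0.31, limma adjusted p = 0.0141). Of all 38 related genes 6 rose and 2 fell after knockdown, against 17.4% of all tested genes higher and 8.86% lower. With the block these counts were 17 and 2, against 30.6% and 14.7%, and under median-of-ratios scaling 3 and 2, against 11.1% and 13.0%. None of the 38 passed after overexpression in limma, with 0 at an unadjusted p under 0.05.

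The scrambled and empty controls come from separate tables, so their levels are set side by side with no test. Against the mean of the empty controls the median member was at -0.05 on the log2 scale in the scrambled controls (lower for 23 of 34), at 0.07 after knockdown (higher for 25 of 34) and at -0.01 with overexpression. Over all tested genes the medians were -0.04, 0.03 and -0.01.

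The 36 genes lie on 16 chromosomes. For 9 of them another gene of GENCODE M21 covers part of the exons, which touches Psma4, Psma5, Psmb5, Psmb7, Psmc3, Psmd1, Psmd3, Psmd9 and Psmd13. The annotation behind the values is not given, so whether the counted exons hold these overlaps is not known. GENCODE M21 names 4 pseudogenes of members (Psmb5-ps, Psmb6-ps, Psmb6-ps2 and Psmb7-ps2), and none has a row of its own in the tables, so reads could be shared between copies in a way the values do not show.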

How the data were processed

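The 12 polyA libraries of BV2 cells were made with a kit that leaves the strand unmarked (TruSeq v2) and read as single reads of 100 bases, per the labels' protocols. STAR 2.5.2a, featureCounts, DESeq2 1.14, CASAVA 1.8.2 and bcl2fastq, and build mm10, are listed without roles in the submitters' processing notes. The annotation behind the values is not given in the sources used here. As deposited, the 2 tables hold FPKM values for 24062 entries, of which 4 sharing a symbol were left out. The unit is not stated and was read from the values. The depth came from the steps in the values of 237 low genes and their GENCODE M21 exon lengths. With that depth, all 130 members and listed genes above 0 came out as whole reads within 0.001 of a read. Each gene's length was searched for this fit, so genes with only a few reads fit easily and add little support.

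Values were taken as log2(FPKM + 1), genes averaging under 1 FPKM in the libraries compared were dropped, and each experiment was tested with limma 3.58.1 (R 4.3.3), adjusted by Benjamini-Hochberg over all tested genes at 0.05. A fold change on this scale understates that of low genes. The difference of responses was fitted over all 12 libraries. The test was checked on simulated data. Those values were drawn independently for each library, with no effect of the library number, so that check cannot decide for or against the block. Same-numbered libraries deviated together (correlation of deviations from group means 0.343 to 0.535 in the knockdown and 0.514 to 0.848 in the overexpression experiment, over the limit of 0.1), so the numbers were taken to pair them. Alternatives were a pseudocount of 0.1, no filter, median-of-ratios scaling, the block, a trended robust variance, leaving out each library and, chosen after seeing the data, leaving out both libraries numbered 2. Members and lists were chosen with earlier results of these data known. Library values are printed for the 3 catalytic subunits, the called members and the highest and lowest fold change of each experiment; up to 3 called genes of each related list are named by smallest p, and 1 listed gene is not reported here. Members named beyond that were chosen after their values were seen. Summed microglia, neuron, astrocyte, oligodendrocyte, fibroblast and T cell markers were used as checks: oligodendrocyte markers summed to at most 0.606 and T cell markers, led by Lck, to at most 4.26 FPKM. Of 7 tested heat shock genes 2 rose after knockdown, against 17.4% of all tested genes, and 5 with the block, against 30.6%; after overexpression 0 passed in limma, with 0 at an unadjusted p under 0.05.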

Additional observations from a re-analysis of the deposited data

How the results depend on the processing

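With the replicate number as a block, by which same-numbered libraries are paired, calls after knockdown went from 2945 to 5081 genes, from 1 to 5 core and from 1 to 9 regulatory subunits; after overexpression from 0 to 13 genes, with 0 subunits either way; and for the difference of responses from 543 to 4658 genes. Without both libraries numbered 2, calls were 449 genes after knockdown, 80 for the difference and 0 of both kinds of subunit, with fewer samples. Leaving out 1 library at a time gave 1458 to 2206 genes after knockdown, 109 to 575 for the difference, 1 core subunit each time and 0 to 1 regulatory subunits. A trended robust variance called 2 core subunits. A pseudocount of 0.1 called 0 regulatory subunits and no filter called 2; the cause was not tested. Psmb5 turned from 0.04 to -0.04 with median-of-ratios scaling after knockdown, and Psmc4 after overexpression ran from -0.07 (without empty control 2) through -0.02 (without overexpression library 1) to 0.27 (without overexpression library 2). Psma7 passed in 11 of 12 alternatives and Psmc3 in 2 of 12. The change in core minus regulatory level stayed within 1 unpaired SD in all 9 alternatives run for it in each experiment. The block was not among them. Each expressed subunit held at least 646 reads a library.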
